A study of Rattus norvegicus with 10 samples.

Results

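Glycolysis breaks glucose down to pyruvate, and gluconeogenesis rebuilds glucose from pyruvate, lactate and amino acids. In liver both routes run in hepatocytes, and a few enzymes at the irreversible steps set which one prevails. The enzymes followed here were Pck1 (cytosolic phosphoenolpyruvate carboxykinase), G6pc1 (the catalytic subunit of glucose-6-phosphatase) and Fbp1 (fructose bisphosphatase) on the side of glucose synthesis, and Pklr (the pyruvate kinase of liver and red cells) on the side of glucose breakdown. Pfkfb1 encodes the bifunctional enzyme that makes and removes a regulatory sugar phosphate that signals to both routes. It is not the fructose bisphosphate on which Fbp1 and aldolase act. Aldoa (aldolase A) and Pgk1 (phosphoglycerate kinase) encode enzymes of reversible steps that both routes share. Members were all probe sets whose only gene symbol in the probe table of the array was one of these 7 genes. The rule found 11 probe sets of 6 genes among the 8799 probe sets on the array, which gave 1 symbol for 4737 genes: 4 of Pfkfb1, 3 of Pgk1 and 1 each of Pck1, Fbp1, Pklr and Aldoa. G6pc1 had none, because both probe sets that list it also list Psme3 and Aoc3.

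Total RNA of rat liver was measured on 10 expression arrays in 5 groups of 2. The control group was sham (labelled 0 h), and the others were burned and sampled at 1, 4, 8 or 24 h; strain, sex, age, burn size and treatment are not stated in the labels. Since the labels do not tie the arrays to individual rats, every p-value reflects the spread between 2 hybridisations per group, and that spread may be purely technical. Values were linear intensities, with array medians of 100.1 to 131.1, and 2 arrays per group set the precision.

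The samples carried the markers of liver on every array: 11 of 12 hepatocyte marker genes were on the array, all 11 were tested, and albumin (Alb) read 42718.7 to 94416.8. Marker genes of the exocrine pancreas moved with the groups. Their intensities, summed over 13 of the 14 listed genes, were 9669.6 to 10497.7 on the sham arrays, 43915.1 to 45595.4 at 1 h, 2240.3 to 2442.3 at 4 h (3 genes under the floor given below on both arrays), 13118.3 to 13799.9 at 8 h and 2125.7 to 2644.6 at 24 h (5 genes under it). Erythroid markers summed to 62367.1 and 71757.1 on the 1 h arrays and to 39723.9 to 53316.6 on the others. The part of either in the results below was not tested. In such bulk samples fewer cells of a type and less RNA per cell cannot be told apart.

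Pck1 and Pklr are the textbook cases of hormone and sugar control in this pathway, through a cyclic AMP response element and a carbohydrate response element, so the 250 bases before their start sites are shown from the RefSeq promoter table (GRCr8). The Pck1 stretch lies at chr3:182348322-182348571 on the plus strand and the Pklr stretch at chr2:176841014-176841263 on the plus strand, and capitals mark the matched element.
Pck1: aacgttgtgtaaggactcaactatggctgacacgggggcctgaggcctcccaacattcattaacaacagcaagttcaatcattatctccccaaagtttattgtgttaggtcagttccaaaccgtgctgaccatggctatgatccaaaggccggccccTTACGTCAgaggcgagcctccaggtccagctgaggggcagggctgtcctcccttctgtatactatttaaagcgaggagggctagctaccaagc
Pklr: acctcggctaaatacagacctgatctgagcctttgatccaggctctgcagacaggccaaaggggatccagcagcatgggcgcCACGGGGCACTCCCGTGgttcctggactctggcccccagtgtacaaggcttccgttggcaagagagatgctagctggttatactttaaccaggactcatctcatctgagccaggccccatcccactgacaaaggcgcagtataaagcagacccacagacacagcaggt

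Both strands were searched for 5 patterns, and the table held promoters for 6 of the 7 genes, all but Pgk1. The cyclic AMP element variant TTACGTCA begins 93 bases before the Pck1 start and is in 0.75% of 33469 promoters of this length. The palindromic form TGACGTCA, in 1.59% of them, was in none of the member promoters. The carbohydrate response element, as capitalised in the Pklr sequence and searched with its 5 central bases left free, begins 168 bases before the Pklr start. That was the only match among the 33469. The pattern is the Pklr element itself with those bases freed, so a match in Pklr was bound to occur. TTACGTCA was likewise chosen for Pck1, so neither of these matches, nor its rarity, is a result. The hypoxia response core ACGTG, in 16.6% of promoters, was found in 1 of the 3 Aldoa promoters, 192 bases before its start, and in no other member promoter. The E box CACGTG, which contains that core, is in 5.59% and was in none of them. A match is a description of the letters, and no factor binding was measured.

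Each burn group was compared with sham in 1 limma model of all 10 arrays, after values under 36.4 had been raised to 36.4 and put on the log2 scale. A probe set is said to have risen or fallen where its Benjamini-Hochberg adjusted p over the 5285 tested probe sets was under 0.05. Of the 11 member probe sets 10 were tested, and the dimmest, M31788_at of Pgk1, was not. At 1 h 1 of the 10 rose, where 1.44% of all tested probe sets were called and 0.795% rose. At 4 h 2 rose, beside 4.35% called and 2.37% risen in all. At 8 h 1 rose and 1 fell, beside 3.5% called, 1.55% risen and 1.95% fallen. At 24 h 1 rose and 2 fell, beside 10.3% called, 3.94% risen and 6.34% fallen. At an unadjusted p under 0.05 the counts were 2, 4, 5 and 3. The share of all tested probe sets under that level was not counted. These counts, and the unadjusted counts of the gene lists below, are therefore no result about the genes. Altogether 5 probe sets of 5 genes were called at some time, and 4 passed the F test over the 4 times, which called 15.3% of all probe sets. Fbp1 was the gene with a tested probe set and no call. Both arrays lay above both sham arrays for 2, 3, 6 and 3 of the 10 at the 4 successive times, beside 21.7%, 20.1%, 18.6% and 24.6% of all probe sets. Both lay below for 5, 4, 2 and 4, beside 21%, 26%, 29.7% and 29.4%. The median log2 change of the 10 was -0.28, -0.15, 0.19 and -0.03 at 1, 4, 8 and 24 h, beside 0.01, -0.04, -0.10 and -0.04 over all tested probe sets. M27886exon_at of Pfkfb1 counts as below sham at all 4 times, and J04197_i_at as above it at 8 h. Each was tested through the arrays on which it was high, as given below. These array counts and medians are therefore no result about the genes. The members were chosen with earlier results of these data known, so the counts of calls are no result about them either. With only the sham arrays and the arrays of 1 burn time in the fit, no member was called at any time, where limma called 0, 69, 0 and 104 probe sets in all.

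**Figure D1:**
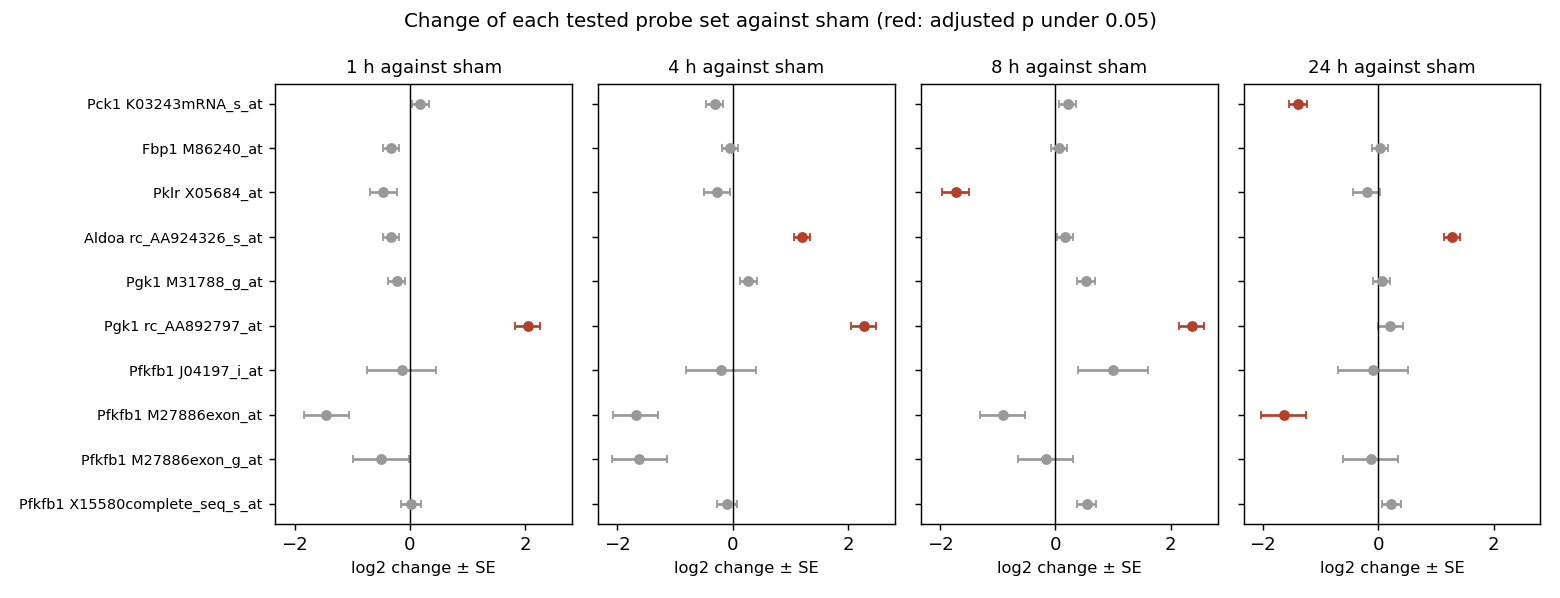
Log2 change against sham (x axis, bars are the SE of the limma model) of the 10 tested probe sets (y axis) at 1, 4, 8 and 24 h, with probe sets of adjusted p under 0.05 in red. Pgk1 on rc_AA892797_at lies to the right at 1, 4 and 8 h, Aldoa at 4 and 24 h, Pklr to the left at 8 h, and Pck1 and 1 Pfkfb1 probe set at 24 h.

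Among the enzymes of glucose synthesis, Pck1 fell at 24 h. Pck1 makes phosphoenolpyruvate from oxaloacetate and is known to be induced by glucagon and glucocorticoids and repressed by insulin. Its probe set K03243mRNA_s_at read 20047.5 and 19619.6 on the sham arrays, 21713.8 and 23329.6 at 1 h, 14928.8 and 17048.9 at 4 h, 23974.1 and 21933.1 at 8 h, and 7671.1 and 7485.3 at 24 h. The 24 h arrays were lower than every other array, and the 4 h arrays lay between them and the rest. At 24 h the level was 2.62-fold lower than in sham (log2 change -1.39, SE 0.15, 2 arrays a group, adjusted p = 0.00247). The step from 8 h to 24 h was a 3.03-fold decrease (log2 change -1.60, SE 0.15, adjusted p = 0.00125). In that step 4 members were called, 2 higher and 2 lower, beside 11.8% of all probe sets, 5.81% higher and 5.94% lower. Earlier changes did not pass: the log2 change was 0.18 at 1 h (adjusted p = 0.713), -0.31 at 4 h (0.351) and 0.21 at 8 h (0.512), although the arrays of each of these groups did not overlap with sham. The decrease at 24 h was called with each array left out in turn.

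Fbp1, which removes a phosphate from fructose bisphosphate in the direction of glucose, was not called at any time. M86240_at read 15743.7 and 16172.5 on the sham arrays, 12699.6 and 12885.7 at 1 h, 14917.5 and 16147.9 at 4 h, 15961.5 and 17310.3 at 8 h, and 16528.7 and 16158.2 at 24 h. The 1 h arrays were the lowest, below both sham arrays, with a log2 change of -0.32 (SE 0.14, adjusted p = 0.43). At 4, 8 and 24 h the arrays overlapped with sham, and the 95% intervals of the log2 change were -0.37 to 0.29, -0.27 to 0.39 and -0.30 to 0.37. These intervals exclude at 24 h a fall of the size measured for Pck1.

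No value is given for G6pc1, which frees glucose from glucose 6-phosphate in the last step of glucose output. The brighter of the 2 probe sets shared with Psme3 and Aoc3, L37333_s_at, cannot be given to any of the 3 genes. That probe set read 4446.6 and 5226.5 on the sham arrays, 8685.8 and 9072.2 at 1 h, 4246.3 and 5443.1 at 4 h, 6718.9 and 7278.1 at 8 h, and 900.4 and 773.9 at 24 h. The other, U72632_at, ranged from 102.5 to 380.5.

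Pklr, whose enzyme makes pyruvate from phosphoenolpyruvate and is known to rise with carbohydrate feeding, fell at 8 h and was back near sham at 24 h. X05684_at read 350.5 and 333.2 on the sham arrays, 287.1 and 213.9 at 1 h, 242.4 and 331.5 at 4 h, 110.6 and 95.8 at 8 h, and 280.2 and 317.6 at 24 h. Both 8 h arrays lay below all 8 others. The decrease at 8 h was 3.32-fold (log2 change -1.73, SE 0.23, 2 arrays against 2, adjusted p = 0.0139). It followed a 2.75-fold decrease from 4 h (adjusted p = 0.0106, a step in which 2 members and 8.29% of all probe sets were called, 4.81% lower) and preceded a 2.9-fold increase to 24 h (adjusted p = 0.00684). At 1, 4 and 24 h every burn array lay below both sham arrays, but the log2 changes of -0.46, -0.27 and -0.20 did not pass (adjusted p = 0.479, 0.636 and 0.648). The call at 8 h ended without sham array 1 (adjusted p = 0.0828), sham array 2 (0.0685) or 8 h array 2 (0.076). The step from 4 h did not pass without 4 h array 2 (0.0568) or 8 h array 2 (0.0599).

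**Figure D2:**
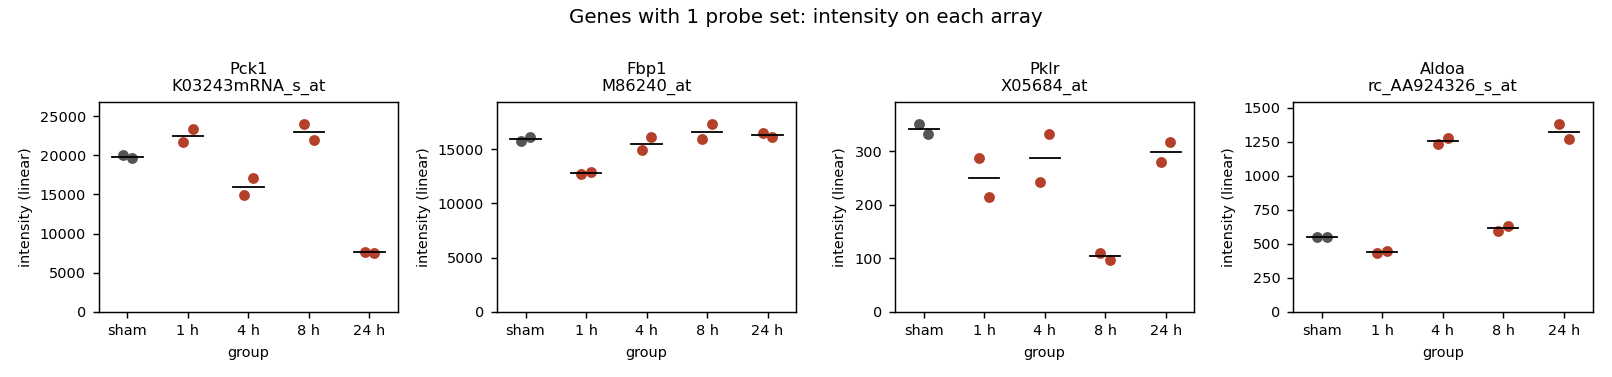
Intensity on a linear scale (y axis) by group (x axis) for Pck1, Fbp1, Pklr and Aldoa, each with 1 probe set; points are arrays, grey for sham and red for burn, and black lines are means of 2 arrays. Pck1 is lowest at 24 h, Fbp1 stays between 12699.6 and 17310.3, Pklr is lowest at 8 h, and Aldoa is high at 4 and 24 h only.

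Aldoa, the aldolase best known from muscle, rose at 4 h and again at 24 h. Aldolase splits fructose bisphosphate in glycolysis and forms it again in gluconeogenesis. Its probe set rc_AA924326_s_at read 546.3 and 547.6 on the sham arrays, 432.5 and 444.2 at 1 h, 1232.8 and 1276.3 at 4 h, 595.1 and 633.0 at 8 h, and 1377.9 and 1271.7 at 24 h. The 4 h and 24 h arrays lay above all the others and overlapped with each other. The increase was 2.29-fold at 4 h (log2 change 1.20, SE 0.14, 2 arrays a group, adjusted p = 0.00389) and 2.42-fold at 24 h (log2 change 1.28, SE 0.14, adjusted p = 0.00261). At 1 h and 8 h the log2 changes were -0.32 and 0.17 (adjusted p = 0.425 and 0.581).

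The course of Aldoa also passed the test at each step between neighbouring times. It rose 2.86-fold from 1 h to 4 h (adjusted p = 0.00122, a step in which 5% of all probe sets were called, 2.46% higher), fell 2.04-fold to 8 h (adjusted p = 0.00632) and rose 2.16-fold to 24 h (adjusted p = 0.00404). Each of these calls, and those against sham, held without any 1 of the 10 arrays. Skeletal muscle markers, of which 10 of 13 were on the array, 4 were tested and 2 were under the floor of 36.4 on every array, summed to 880.4 and 918 on the sham arrays. They summed to 697 and 768 at 1 h, 785 and 814 at 4 h, 668 and 975 at 8 h, and 702 and 725 at 24 h, with 2 to 4 of the genes under the floor on both arrays of a group. The sums were below sham at 1, 4 and 24 h and overlapped with it at 8 h, and their part in the Aldoa result was not tested.

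Pgk1, whose enzyme makes ATP in glycolysis and spends it in gluconeogenesis, rose at 1, 4 and 8 h on 1 of its 3 probe sets. That probe set, rc_AA892797_at, read 426.2 and 609.2 on the sham arrays, 2372.2 and 1847.2 at 1 h, 2563.5 and 2369.4 at 4 h, 2602.0 and 2626.4 at 8 h, and 554.1 and 622.7 at 24 h. All 6 arrays of 1, 4 and 8 h lay above all 4 arrays of sham and 24 h, which overlapped. The increase was 4.11-fold at 1 h (log2 change 2.04, SE 0.22, 2 arrays a group, adjusted p = 0.00644), 4.84-fold at 4 h (adjusted p = 0.00181) and 5.13-fold at 8 h (adjusted p = 0.00468). From 8 h to 24 h it fell 4.45-fold (log2 change -2.15, SE 0.22, adjusted p = 0.00177), and at 24 h the log2 change from sham was 0.21 (adjusted p = 0.625). Without 1 h array 1 the increase at 1 h did not pass (log2 change 1.86, adjusted p = 0.0527).

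The probe set M31788_g_at of the same gene did not show that course. It read 1270.7 and 1248.2 on the sham arrays, 1091.1 and 1049.7 at 1 h, 1541.1 and 1487.3 at 4 h, 1978.4 and 1679.4 at 8 h, and 1274.1 and 1355.7 at 24 h. At 1 h its log2 change was -0.23, with a 95% interval of -0.59 to 0.12 that lies apart from the interval of 1.52 to 2.56 on rc_AA892797_at. At 8 h it was 0.53 (SE 0.15, adjusted p = 0.116), with an interval of 0.18 to 0.89 beside 1.84 to 2.88, and it was called with no filter (0.0365) or with the intensity trend (0.0329). Both probe sets had their highest mean at 8 h, and their Pearson correlation over the 10 arrays was 0.39.

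The other Pgk1 probe set, M31788_at, was under 36.4 on 5 arrays, those of sham and 1 h and 1 of 4 h. It read 54.4 on the other 4 h array, 58.6 and 47.3 at 8 h, and 71.4 and 54.6 at 24 h. The 3 probe sets of Pgk1 thus gave 3 different courses, and which transcripts each of them detects was not tested.

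**Figure D3:**
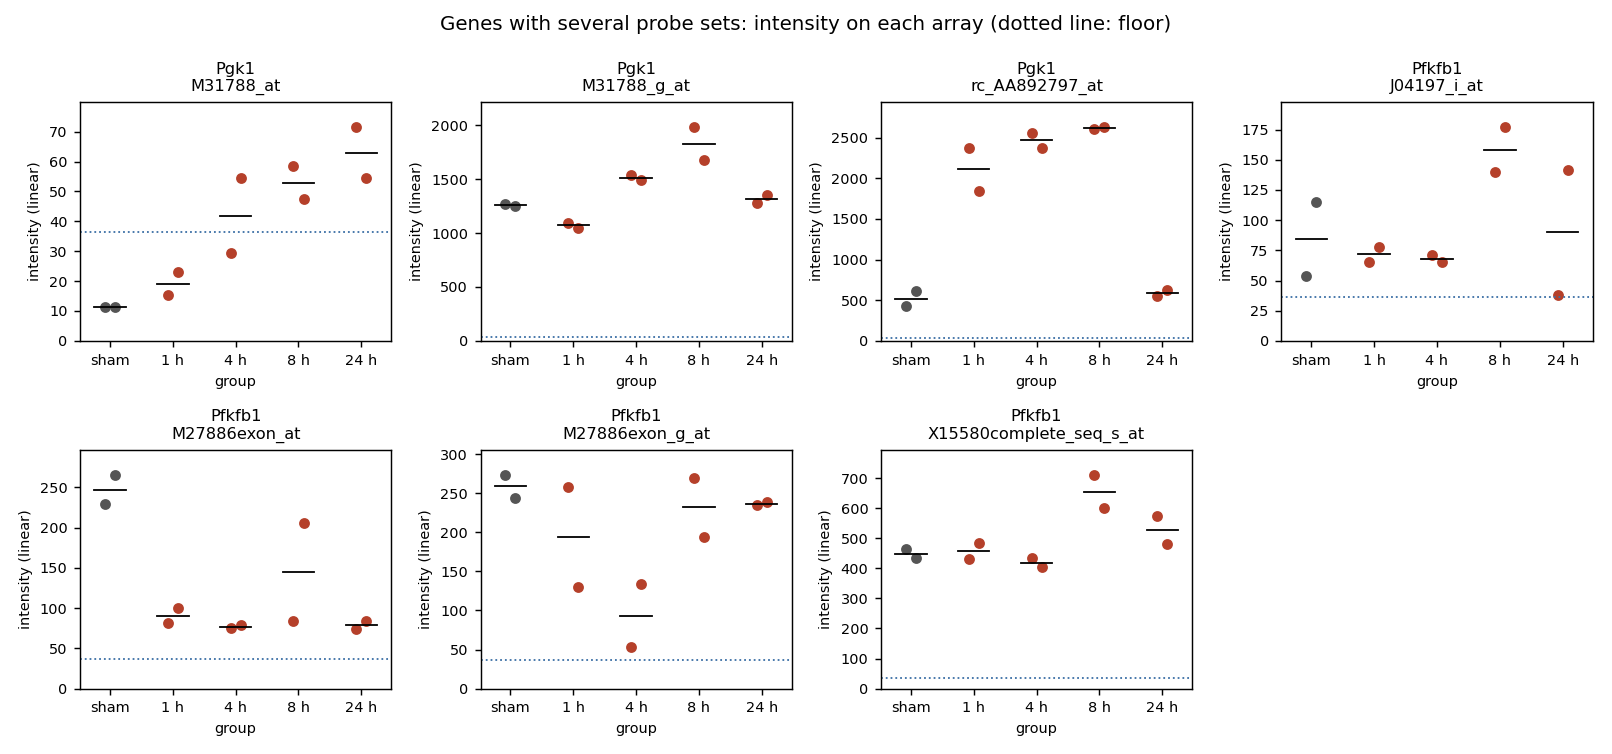
Intensity on a linear scale (y axis) by group (x axis) for the 3 probe sets of Pgk1 and the 4 of Pfkfb1; points are arrays, grey for sham and red for burn, black lines are means of 2 arrays, and the dotted line is the floor of 36.4. Probe sets of 1 gene follow different courses, as for rc_AA892797_at and M31788_g_at of Pgk1.

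Pfkfb1 was called lower at 24 h on 1 of its 4 probe sets, which entered the test mainly through its sham values. Its product makes fructose 2,6-bisphosphate, which drives glycolysis and holds back gluconeogenesis, and breaks it down once glucagon signalling has phosphorylated the liver enzyme. The gene is known to use alternative promoters that give liver and muscle forms. M27886exon_at read 229.1 and 265.0 on the sham arrays, 81.4 and 99.6 at 1 h, 75.1 and 78.8 at 4 h, 83.7 and 205.6 at 8 h, and 73.7 and 84.4 at 24 h. All 8 burn arrays lay below both sham arrays, with 1 of the 8 h arrays near them. It passed the filter on dim probe sets, which asked for a value above the array's median on 2 arrays, only on both sham arrays and that 8 h array, so a probe set chosen in this way was bound to be higher in sham than in most burn groups. With no filter the call at 24 h did not pass (adjusted p = 0.0824), and its count among the members called is no support for a decrease of the gene.

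The log2 change on M27886exon_at was -1.64 at 24 h (3.12-fold lower, SE 0.39, 2 arrays a group, adjusted p = 0.0401). It was -1.45 at 1 h (adjusted p = 0.178), -1.68 at 4 h (0.0645) and -0.91 at 8 h (0.267). The 4 h decrease was called with quantile normalization (adjusted p = 0.0342), scaling to a common median (0.036) and the floor at the 50th percentile (log2 change -1.02, 0.0409). These fits, and those below with an array left out, kept the filter that the probe set passed through its sham values. Their calls are therefore no support for a decrease of the gene either. Without either 8 h array the probe set was called at 1 h and 4 h (adjusted p of 0.0252 and 0.00669 or less). It was called at 8 h without 8 h array 2 (log2 change -1.56, adjusted p = 0.0493), the array near sham. The call at 24 h was lost on leaving out any array but those of 8 h (adjusted p of 0.0654 to 0.165).

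The brightest probe set of Pfkfb1, X15580complete_seq_s_at, read 464.1 and 433.9 on the sham arrays, 431.2 and 483.4 at 1 h, 434.6 and 403.7 at 4 h, 709.8 and 599.5 at 8 h, and 573.4 and 480.0 at 24 h. Both 8 h arrays were above all the others, with a log2 change of 0.54 from sham that did not pass (SE 0.17, adjusted p = 0.16). Its 95% interval at 24 h, -0.18 to 0.63, lies apart from that of M27886exon_at, -2.55 to -0.74. M27886exon_g_at read 272.9 and 244.2 on the sham arrays and 52.7 and 134.1 at 4 h, where its log2 change of -1.62 did not pass (SE 0.48, adjusted p = 0.131), and 129.9 to 269.6 at the other times. J04197_i_at, which passed the filter only on both 8 h arrays and 1 of 24 h, ranged from 38.4 to 176.8 and was highest at 8 h (140.2 and 176.8; log2 change 1.00, SE 0.60, adjusted p = 0.428). Between pairs of the 4 probe sets the Pearson correlation over 10 arrays was -0.04 to 0.37.

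The other enzymes and controls of glucose metabolism were described from 7 gene lists, with the members left out and each gene represented by its brightest tested probe set. The lists held 81 tested genes with 124 probe sets, and 27 of the genes had 44 calls against sham. There were 3, 13, 4 and 24 calls at the 4 successive times, beside 1.44%, 4.35%, 3.5% and 10.3% of all tested probe sets. The count at 8 h lay near that share. The lists were chosen with earlier results of these data known. None of these counts, nor those of each list below, is therefore a result about the lists. The same shares stand beside the counts of each list below. Of the 44 calls, 16 held with each array left out in turn, 8 at 4 h and 8 at 24 h. They came from 9 genes: Got1, Crem, Pdk4, Tat, Igfbp1, Foxa2, Foxa3, Cebpa and Hmox1.

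Of 6 further genes of gluconeogenesis, 1 rose and 0 fell at 4 h and at 8 h, and 1 rose and 1 fell at 24 h. The gene that rose was Got1, the cytosolic aspartate aminotransferase that moves oxaloacetate carbon toward Pck1. J04171_at read 1493.2 and 1263.4 on the sham arrays, 7213.4 and 7193.0 at 4 h and 5332.5 and 4829.5 at 24 h, an increase of 5.24-fold (adjusted p = 0.000873) and 3.69-fold (0.00213). Its 8 h increase of 2.5-fold (adjusted p = 0.0205) did not pass without any 1 of the sham or 8 h arrays. Slc37a4, the glucose 6-phosphate carrier that works with G6pc1, was the gene that fell at 24 h (1.63-fold on AF080468_g_at, adjusted p = 0.0479), a call that ended without any 1 of the 10 arrays. Pc, pyruvate carboxylase, was called lower at 24 h on U32314_at (log2 change -0.62, adjusted p = 0.0468) and not on its brighter probe set U32314_g_at (-0.49, 0.243), and the call ended without any 1 of the 10 arrays. Mdh1, the cytosolic malate dehydrogenase, had log2 changes of -0.08 to 0.58 and no call. At 1 h limma called 0 of the 6, with 3 at an unadjusted p under 0.05.

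Among 15 further genes of glycolysis limma called 0 at 1, 4 and 8 h, with 1 at an unadjusted p under 0.05 each time. At 24 h 1 fell, Gckr, the regulatory protein that holds glucokinase in the nucleus (log2 change -0.61, adjusted p = 0.043), and the call was lost on leaving out any array but those of 4 h. With 10.3% of all tested probe sets called at 24 h, 1 of 15 is no result about the list. The list's medians were -0.07, 0.11, -0.20 and 0.17 at 1, 4, 8 and 24 h. Gapdh and Eno1 (enolase), the genes of highest mean signal once those with a call on any probe set were set aside, had log2 changes of -0.37 to 0.30 on AFFX_Rat_GAPDH_3_at and of -0.07 to 0.63 on X02610_g_at, with no call. Probe sets other than the representative were called for Pfkfb3, another bifunctional enzyme (AB006710_s_at, 1.71 at 4 h, adjusted p = 0.0452), and for Pgam1, phosphoglycerate mutase (S63233_g_at, 1.01 at 24 h, adjusted p = 0.0241). The brighter probe sets of Pfkfb3 and Pgam1 had log2 changes of 0.36 (adjusted p = 0.751) and 0.15 (0.602) at those times. AB006710_s_at read 169.1 and 147.1 at 4 h, and was under the lowest array median, 100.1, on every sham, 1 h and 8 h array. It passed the filter through its 4 h arrays, with at most those of 24 h besides. Its call at 4 h is therefore no support for an increase of Pfkfb3. The Pfkfb3 call was lost on leaving out any array but those of 8 h, with no filter (adjusted p = 0.0952), with the intensity trend (0.104) and with the floor at the 10th percentile (0.18) or the 50th (log2 change 0.38, 0.123). The Pgam1 call was lost without any sham or 24 h array and with scaling to a common median (0.0539).

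Glycogen metabolism had 11 tested genes with 0 called at 1, 4 and 8 h (1, 1 and 2 at an unadjusted p under 0.05) and 1 higher at 24 h, the phosphatase gene Ppp1cc (0.65, adjusted p = 0.0483), whose call ended without any 1 of 9 arrays. That count did not exceed the 10.3% of all tested probe sets called at 24 h and is no result about the list. Of 6 transporter genes limma called 0 by their representative (0, 1, 0 and 1 at an unadjusted p under 0.05). Slc2a2, the glucose carrier of the hepatocyte, read 1817.6 and 1966.7 on the sham arrays and 1359.3 and 1617.5 at 24 h (log2 change -0.35, adjusted p = 0.31). The lactate and pyruvate carrier Slc16a1 rose at 24 h on D63834_at (1.44, adjusted p = 0.0109), a call that ended without sham array 2 or either 24 h array, and had 0.87 (0.0705) on its brighter probe set.

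Of 8 pentose phosphate and sugar entry genes, 1 fell at 4 h, 1 at 8 h and 2 at 24 h, and limma called 0 higher by their representative. The list's medians were -0.07, -0.13, -0.23 and -0.47 at 1, 4, 8 and 24 h, beside 0.01, -0.04, -0.10 and -0.04 over all tested probe sets. Tkfc, a kinase of fructose breakdown, read 1045.6 and 966.1 on the sham arrays and 346.9 and 293.4 at 8 h, a 3.15-fold decrease (adjusted p = 0.0203), after 2.32-fold at 4 h (0.0381). Khk, the fructose kinase, and Sord, the sorbitol dehydrogenase, fell by 0.75 and 0.74 on the log2 scale at 24 h (adjusted p = 0.0258 and 0.0489). Each of these calls ended without at least 1 sham array and with scaling to a common median. Me1, malic enzyme, was called higher at 24 h on rc_AI008020_at (0.96, adjusted p = 0.0292) and had -0.26 (0.499) on its brightest probe set; the call ended without any sham or 24 h array. At 1 h limma called 0 of the 8 genes, with 2 at an unadjusted p under 0.05.

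Of 30 tested genes of hormone and transcription control, the longest list, 2 rose at 1 h, 4 rose and 2 fell at 4 h, 0 were called at 8 h (8 at an unadjusted p under 0.05), and 1 rose and 6 fell at 24 h, where the list's median was -0.26. Igfbp1, a gene repressed by insulin that shares hormone control with Pck1, read 5989.7 and 5824.5 on the sham arrays, 15098.5 and 15906.1 at 4 h and 1903.3 and 1855.1 at 24 h. It rose 2.62-fold at 4 h (adjusted p = 0.00271) and fell 3.14-fold at 24 h (adjusted p = 0.00108). Tat, an aminotransferase gene induced by glucocorticoids, rose 2.4-fold at 4 h (adjusted p = 0.00316), and the calls of Igfbp1 and Tat at 1 h ended without any sham or 1 h array. Pdk4, the kinase that keeps pyruvate out of the citric acid cycle, rose 10.8-fold at 4 h (adjusted p = 0.0016).

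Transcription factors of the list are given next. Cebpa, a hepatocyte activator, read 739.2 and 849.4 on the sham arrays and 213.5 and 193.8 at 24 h, 3.9-fold lower (adjusted p = 0.000772). Foxa2 was 3.47-fold lower at 24 h (adjusted p = 0.00295) and 5.48-fold lower at 4 h (0.000923). Foxa3 of the same family rose 3.37-fold at 24 h on AB017044exon_at (adjusted p = 0.0054). Crem, a gene of cyclic AMP responsive factors, rose 2.82-fold at 1 h (adjusted p = 0.00613) and 4.87-fold at 4 h (0.000461) on S66024_at, while its brighter probe set S66024_g_at had 0.86 (0.269) and 0.80 (0.189). Without sham array 2 or 1 h array 2 the Crem call at 1 h ended. The remaining genes fallen at 24 h were Adra1b, Cebpb and Onecut1 (log2 changes of -1.31, -0.70 and -1.10, adjusted p = 0.0145, 0.0472 and 0.0283). Prkaca and Pdk2 were called lower on a dimmer probe set (2-fold and 1.95-fold, adjusted p = 0.0185 and 0.044). Neither was called on its brightest probe set, so neither is counted as fallen. Each of these 5 calls at 24 h was lost on leaving out any of at least 3 arrays, both sham arrays among them. At 4 h Cebpb rose (1.02, adjusted p = 0.0191) and Onecut1 fell (-1.54, 0.0137), and both calls ended without either sham array or 4 h array 2.

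Aldoa and Pgk1 are known hypoxia-induced genes, and 12 others of that list were tested. At 4 h 1 rose and 1 fell, and at 8 h and 24 h 1 rose and 0 fell. The count at 24 h did not exceed the share of 10.3% over all tested probe sets and is no result about the list. The gene that rose was Hmox1, heme oxygenase, 10.9-fold at 4 h (adjusted p = 0.000461), 2.6-fold at 8 h (0.0342) and 6.04-fold at 24 h (0.00124) on rc_AI179610_at, and the one that fell was P4ha1, a collagen hydroxylase subunit (-1.12, 0.0266). Vegfa, the vascular growth factor, was called lower at 24 h on rc_AA850734_at (-1.19, adjusted p = 0.0115) and had -1.42 (0.216) on its brightest probe set. The P4ha1 call was lost on leaving out any array but those of 1 h, with the intensity trend (adjusted p = 0.118) and with the floor at the 50th percentile (log2 change -0.41, 0.236). The Vegfa call was lost without sham array 2 or either 24 h array, and the representative Hmox1 call at 8 h without any array but those of 1 h. At 1 h 0 of the 12 were called, with 2 at an unadjusted p under 0.05.

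**Figure D4:**
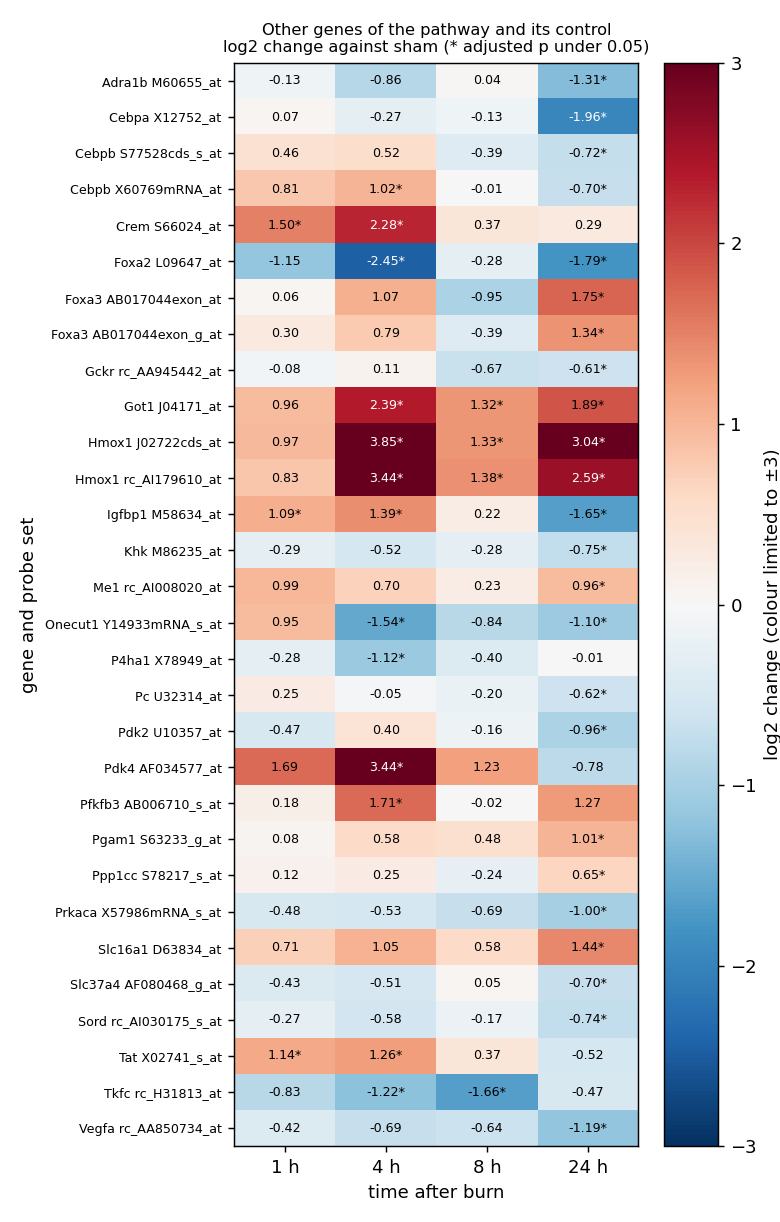
Log2 change against sham (numbers and colour, colour limited to ±3) at 1, 4, 8 and 24 h (x axis) for every probe set of the gene lists called at any time, members left out (y axis); a star marks an adjusted p under 0.05 in limma. Starred increases of Got1 and Hmox1 recur from 4 h to 24 h, and starred decreases of Cebpa and Igfbp1 stand at 24 h.

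Genes with the most similar course were named by Pearson correlation of log2 intensity over the 10 arrays, as a description. The arrays form 5 pairs of 1 time each, so few independent points stand behind each value. The course of Pck1 was closest to those of Cyp7a1, the rate-limiting enzyme of bile acid synthesis (0.99), Acsl1, an acyl-CoA synthetase (0.98), and the glucuronosyltransferase gene Ugt2b (0.97). Cyp7a1 had group means of 2299.3, 3501.5, 1557.4, 4266.9 and 310.1 from sham to 24 h. For Aldoa they were Arg1 (0.98) and Asl (0.97) of the urea cycle and Dlat of the pyruvate dehydrogenase complex (0.96). Arg1 had group means of 7418.3, 6554.4, 12449.1, 7591.5 and 14417.6.

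Pklr came closest to Jak2, Afm and Ces1c (0.93 each), with Ces1c, a carboxylesterase gene, at a mean of 17350.3 in sham and 3981.0 at 8 h. Pgk1 on rc_AA892797_at was nearest to Ephx2 (0.91), Alas1 (0.89) and Klc1 (0.85), lower values than those of Pck1 or Aldoa. Fbp1 was nearest to Chordc1 and Ugt2b1 (0.94 each) and to Gapdh on AFFX_Rat_GAPDH_M_at (0.93), and Pfkfb1 on X15580complete_seq_s_at to Serpina10 (0.94), Trappc1 (0.92) and Lcn2 (0.91).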

How the data were processed

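Rat liver RNA was measured on 10 one-colour arrays. The deposited intensity values are linear, 1 per probe set and array, from 0.1 to 97822.9. No header or label states how they were scaled, but each array's mean was 499.6 to 500 after removal of 2% of values at each end. The software that made them is not named in the labels or files. Values were used as deposited, raised to a floor of 36.4 (the median of the arrays' 25th percentiles) and put on the log2 scale. Probe sets above their array's median on at least 2 arrays were tested (5285). The 5 groups were fitted with limma 3.58.1 in R 4.3.3, two-sided, with 5 residual degrees of freedom and Benjamini-Hochberg adjustment, and intervals of 95% came from the same model. Folds are ratios of geometric means. The fit was also run on simulated data without the floor, the filter or an effect of array number, so that run does not cover them.

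The probe table gave 1 symbol for 7018 probe sets, several for 308 and none for 1473. Named list genes had a call, or were among the 2 others of a list with the highest mean. Likeness took the 3 highest correlations. The members and lists were chosen with earlier results of these data known. Arrays of a group correlated at 0.9483 to 0.9552 and shared 8 to 24 identical values. Alternatives were quantile or median scaling, other floors, no filter, an intensity trend, the replicate block, fewer groups and each array left out. A fit without the 1 h arrays was added after seeing the data.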

Additional observations from a re-analysis of the deposited data

Results flagged for a closer look

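For 4 members the change from sham differed between neighbouring burn times by limma's test of the difference itself. Pck1 was lower at 24 h than at 8 h (log2 change -1.60, adjusted p = 0.00125), and Pgk1 on rc_AA892797_at likewise (-2.15, 0.00177). Aldoa differed at each step, by 1.52 from 1 h to 4 h (0.00122), by -1.03 from 4 h to 8 h (0.00632) and by 1.11 from 8 h to 24 h (0.00404). Pklr differed by -1.46 from 4 h to 8 h (0.0106) and by 1.54 from 8 h to 24 h (0.00684).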

How the results depend on the processing

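No called change of a member or of another named probe set reversed under any alternative. With only the groups compared, 0 members were called at 1, 4, 8 and 24 h and from 4 h to 8 h. With an intensity trend or no filter 3 were called from 1 h to 4 h, and with the trend or the floor at the 50th percentile 4 from 4 h to 8 h. With 1 array left out, 0 to 2, 2 to 3, 1 to 2 and 2 to 3 were called at the 4 successive times, 1 at the step to 4 h, 1 to 3 at the step to 8 h and 4 to 5 at the step to 24 h, and 4 to 5 by the F test. Without both 1 h arrays the counts were 2 at 4 h, 2 at 8 h and 2 at 24 h, where Pfkfb1 lost its call (adjusted p = 0.0636). Scaling to a common median moved the median of all tested probe sets at 8 h from -0.10 to 0.06. Same-numbered arrays' deviations correlated at 0.0111 to 0.17, all positive, and above 0.1 in 5 of 10 pairs of groups. A weak effect shared by array number thus cannot be set aside, and the main fit held no such term. With the replicate block 1, 3, 2 and 3 members were called at 1, 4, 8 and 24 h, with Pfkfb1 on M27886exon_at gained at 4 h (adjusted p = 0.0443). Dim probe sets such as those of Pfkfb1 had the largest SE among members, 0.60 on J04197_i_at. Over all probe sets the calls moved too: 76, 230, 185 and 543 at the 4 successive times became 140, 380, 377 and 830 with the intensity trend, and with 1 array left out were at fewest 26, 117, 27 and 224.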
